A study of Mus musculus with 12 samples.

Results

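The genes described here are Kit, Cd14, Aldh1a3 and Cyp24a1, which mark the luminal progenitor cells of the mouse mammary gland. They were measured on Illumina BeadChips in sorted mammary cells of control and ovariectomized mice. Every probe annotated with 1 of the 4 symbols was taken and each is shown on its own. These are 4 of the 19057 genes named by the array's annotation, and they gave 8 of its 45281 probes: 3 for Kit, 1 for Cd14, 3 for Aldh1a3 and 1 for Cyp24a1. Of these, 6 passed the filter on dim probes and were tested.

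All mice were female. The ovariectomized (ovx) mice were FVB/NJ, had their ovaries removed at 8 weeks of age and were used 4 weeks later, with 6 mice combined in each pool. The corresponding entries are blank for the 2 pools of control mice, so whether they matched in age, number or sham surgery is not given. From each of the 4 mouse pools, cells lacking CD45, CD31 and TER119 (surface proteins of blood and endothelial cells) were sorted into a luminal fraction (CD29lo CD24+) and a MaSC-enriched fraction (CD29hi CD24+), each at a stated purity above 90%. The MaSC-enriched fraction is enriched for mammary stem cells and also holds basal and myoepithelial cells, and the luminal fraction holds mature cells as well as progenitors, so neither is a pure progenitor population. There were thus 4 groups of 2 RNA samples: control luminal, ovx luminal, control MaSC-enriched and ovx MaSC-enriched. In such bulk samples fewer cells of a type and less RNA per cell cannot be told apart.

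As background, the luminal layer of the mammary duct contains hormone-sensing cells, which carry oestrogen and progesterone receptors, and progenitors that mostly lack them and give rise to the milk-secreting alveolar lineage. Kit is the receptor tyrosine kinase for stem cell factor, and Cd14 is a surface co-receptor that hands bacterial lipopolysaccharide to Toll-like receptor 4; both are used as surface markers to sort luminal progenitors. Aldh1a3 oxidises retinaldehyde to retinoic acid and is a main source of the aldehyde dehydrogenase activity by which such progenitors are often recognised. Cyp24a1 is the hydroxylase that inactivates vitamin D hormone, and its gene is a classical target of the vitamin D receptor.

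A single array stood out for its low detection: that of control MaSC-enriched replicate 1 had 12994 probes with a detection p under 0.05, and the other 11 had 17705 to 18903. Its dimmest detected signal lay at a log2 level of 7.29, against 5.73 to 5.93 elsewhere. The second principal component of the 8 samples (21.2% of the variance) set both samples of the second control pool apart, at 73.9 for the luminal and 92.5 for the MaSC-enriched sample, with the other 6 between −51.6 and 15. For some of the results, values without that pool are given as well. Keratin genes were read as a check of the fractions. The basal keratin gene Krt5 lay between 11.91 and 13.19 in the MaSC-enriched samples and between 5.04 and 6.58 in the luminal ones. Krt14, also basal, lay between 14.36 and 14.87 in MaSC-enriched cells and between 9.43 and 12.90 in luminal cells. Krt18, a luminal keratin gene, lay between 14.63 and 14.91 in luminal cells and between 11.55 and 13.98 in MaSC-enriched cells. Krt8, also luminal, separated little, at 14.59 to 15.05 in luminal and 13.76 to 14.69 in MaSC-enriched cells. All levels are normalized log2 intensities and a difference of log2 levels is a log2 fold change. Differences are compared within a probe, since levels of different probes cannot be set against each other. An exact two-sided test of 2 samples against 2 cannot give a p below 0.333. The tests therefore used limma, a linear model fitted to all probes that shares the spread across probes and groups. A probe was called at an adjusted p under 0.05 (Benjamini-Hochberg over the 20995 kept probes). Every adjusted p below comes from that fit. Between the fractions, Krt5 and Krt14 were called in control and in ovx mice, and Krt18 and Krt8 in neither.

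**Figure D1:**
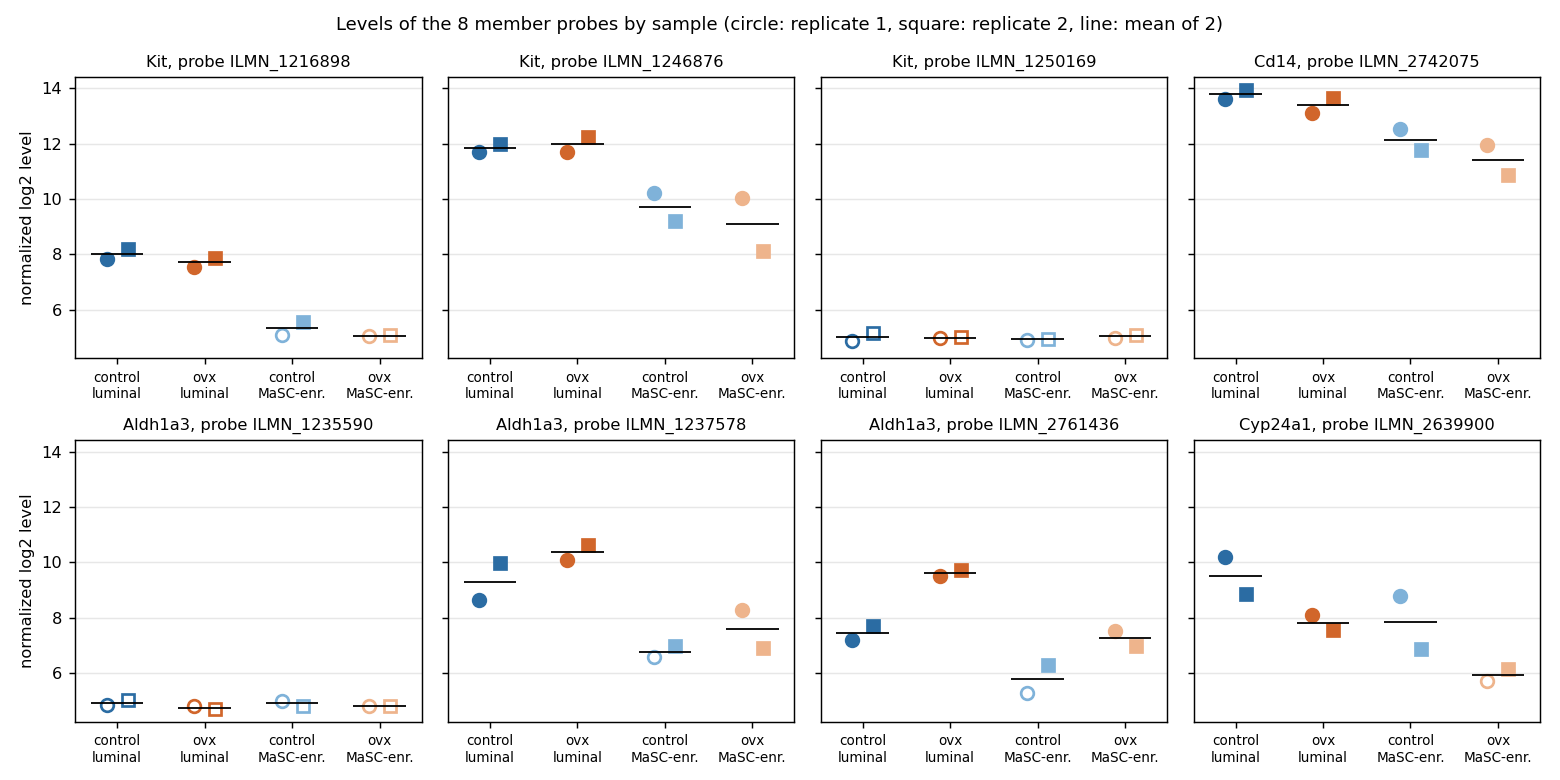
Normalized log2 level (y axis) of each of the 8 probes in the 4 groups (x axis). A circle is replicate 1, a square replicate 2 and a line the mean of both. An open symbol is a sample of which no array had a detection p under 0.05. In the 6 tested probes both luminal samples lie above both MaSC-enriched samples of the same treatment, while the Kit probe ILMN_1250169 and the Aldh1a3 probe ILMN_1235590 stay below 5.2 in all samples.

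Kit was highest in luminal cells, and ovariectomy left no called difference in its level. The probe ILMN_1246876, annotated to the RefSeq transcript NM_021099, was detected on all 12 arrays. Its levels were 11.71 and 11.99 in control luminal cells and 11.71 and 12.23 in ovx luminal cells. In MaSC-enriched cells they were 10.20 and 9.22 in control mice and 10.05 and 8.14 in ovx mice. The luminal samples of the 2 treatments interleaved, all 4 lay above every MaSC-enriched sample, and replicate 1 was the higher of both MaSC-enriched pairs. The mean was 2.14 higher in luminal than in MaSC-enriched cells of control mice (4.39-fold, 95% interval of the difference 0.62 to 3.65), which did not pass (adjusted p = 0.0847). In ovx mice the luminal mean was 2.87 higher (7.33-fold, 1.36 to 4.39), which passed (adjusted p = 0.0299).

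The second tested Kit probe, ILMN_1216898, is annotated to the cDNA clone AK047010 and was dimmer. It read 7.84 and 8.18 in control and 7.56 and 7.86 in ovx luminal cells, detected on all 6 of those arrays. In MaSC-enriched cells it read 5.10 and 5.57 in control mice, where 1 of 3 arrays detected it, and 5.06 and 5.09 in ovx mice, where none of 3 did. The luminal and MaSC-enriched samples did not overlap. In control mice the fitted log2 difference was 2.68 (adjusted p = 0.00390), but neither MaSC-enriched sample was above background (mean detection p 0.386 and 0.124), so its size rests on background values. With no background correction it was 1.34 (adjusted p = 0.00938). In ovx mice it was at least 3.64-fold higher, with the MaSC-enriched signals raised to the lowest detected signal of their arrays (fitted log2 difference 2.64, adjusted p = 0.00329). The third Kit probe, ILMN_1250169 (clone AK046795), was not detected on any of the 12 arrays, so it passed no filter and was not tested. It lay between 4.87 and 5.18 in the 8 samples.

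For ovx against control, the Kit difference in luminal cells was 0.12 by ILMN_1246876 (−1.39 to 1.64, adjusted p = 0.987) and −0.30 by ILMN_1216898 (−1.05 to 0.45, adjusted p = 0.888). In MaSC-enriched cells it was −0.62 (−2.13 to 0.90, adjusted p = 0.843) and −0.26 (−1.01 to 0.49, adjusted p = 0.873), where both ovx samples of ILMN_1216898 lay just below both control samples and 1 of the 6 arrays detected it. The sign of the brighter probe was set by single samples: it was −0.02 in luminal cells without control replicate 1, −0.14 without ovx replicate 2, and 0.34 in MaSC-enriched cells without ovx replicate 2. The intervals are wide and hold both rises and falls of sizable fold for the brighter probe.

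Cd14, by its only probe ILMN_2742075 (NM_009841), was bright on all 12 arrays. Its log2 levels were 13.61 and 13.94 in control luminal, 13.10 and 13.66 in ovx luminal, 12.52 and 11.77 in control MaSC-enriched and 11.97 and 10.86 in ovx MaSC-enriched cells. Each luminal sample lay above each MaSC-enriched one, and the control and ovx samples overlapped within both fractions. As with Kit, replicate 1 was the higher of both MaSC-enriched pairs. The luminal mean was 1.63 higher in control mice (3.10-fold, 0.52 to 2.75), without passing (adjusted p = 0.0760), and 1.97 higher in ovx mice (3.91-fold, 0.85 to 3.08), which passed (adjusted p = 0.0380). With the mouse pool as a fixed replicate block the ovx value did not pass (adjusted p = 0.0651), and with the pool as a random block it did (adjusted p = 0.0245). Without both samples of the second control pool, the control difference between fractions was 1.10 for Cd14 (adjusted p = 0.248) and 1.503 for Kit ILMN_1246876 (adjusted p = 0.271). For ovx against control the Cd14 difference was −0.40 in luminal cells (−1.51 to 0.72, adjusted p = 0.903) and −0.73 in MaSC-enriched cells (−1.84 to 0.38, adjusted p = 0.724).

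Aldh1a3 had 2 tested probes, and both were higher in luminal cells and stood higher, without passing, after ovariectomy. By ILMN_2761436 (NM_053080) the log2 levels were 7.20 and 7.70 in control luminal and 9.51 and 9.71 in ovx luminal cells. In MaSC-enriched cells they were 5.27 and 6.30 in control mice, detected on 2 of 3 arrays, and 7.54 and 6.98 in ovx mice, detected on 3 of 3. Ovx and control samples did not overlap in luminal cells. In MaSC-enriched cells the fitted levels did not overlap either, but control replicate 1 was undetected on an array whose dimmest detected signal, 7.29, lay above ovx replicate 2. Of the ovx MaSC-enriched samples, replicate 1 lay within the range of the control luminal ones and replicate 2 below it. The ovx mean was 4.46-fold above the control mean in luminal cells (log2 difference 2.16, 1.14 to 3.17, unadjusted p = 0.00143, adjusted p = 0.168). In MaSC-enriched cells the fitted log2 difference was 1.47 (0.46 to 2.49, unadjusted p = 0.0108, adjusted p = 0.368), in part against that undetected sample, and 0.68 with no background correction (adjusted p = 0.486). Neither passed over all probes. Over 21 alternatives the difference ran from 1.59 to 2.40 in luminal cells and from 0.68 to 1.98 in MaSC-enriched cells. It was highest without control replicate 2 of the fraction in question.

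The other tested Aldh1a3 probe, ILMN_1237578 (clone AK043530), differed less between treatments. It read 8.63 and 9.97 in control luminal and 10.09 and 10.64 in ovx luminal cells. In MaSC-enriched cells it read 6.58 and 6.98 in control mice, where replicate 1 was not detected, and 8.28 and 6.92 in ovx mice. The luminal samples of the treatments did not overlap, though control replicate 2 came within 0.2 of ovx replicate 1, and the MaSC-enriched samples did overlap. The ovx difference was 1.06 in luminal cells (−0.34 to 2.46, adjusted p = 0.802) and 0.82 in MaSC-enriched cells (−0.58 to 2.23, adjusted p = 0.755). It fell to 0.39 in luminal cells without control replicate 1 and to 0.14 in MaSC-enriched cells without ovx replicate 1. The third probe, ILMN_1235590 (clone AK086764), was not detected on any of the 12 arrays, was not tested, and lay between 4.71 and 5.03.

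Between the fractions, the luminal level of Aldh1a3 by ILMN_1237578 was 5.75-fold that of MaSC-enriched cells in control mice (log2 difference 2.52, 1.12 to 3.93, adjusted p = 0.0413) and 6.78-fold in ovx mice (2.76, 1.36 to 4.16, adjusted p = 0.0260), both called. The control value rests in part on a background level, since control MaSC-enriched replicate 1 was not detected (detection p 0.0705). The control call was lost under 12 of 21 alternatives (adjusted p from 0.0220 to 0.417 over all 21), among them leaving out any 1 of the luminal samples or control MaSC-enriched replicate 1. By ILMN_2761436 the log2 difference was 1.66 in control mice (0.65 to 2.68, adjusted p = 0.0548), which missed the threshold, and 0.79 with no background correction (adjusted p = 0.0918). It was 5.10-fold in ovx mice (2.35, 1.34 to 3.36, adjusted p = 0.0145), which passed. With the mouse pool as a replicate block the control value of ILMN_2761436 passed (adjusted p = 0.0437). Without both samples of the second control pool the control difference by ILMN_1237578 was 2.05 and no longer passed (adjusted p = 0.0942), and that by ILMN_2761436 was 1.93 and passed (adjusted p = 0.0329).

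**Figure D2:**
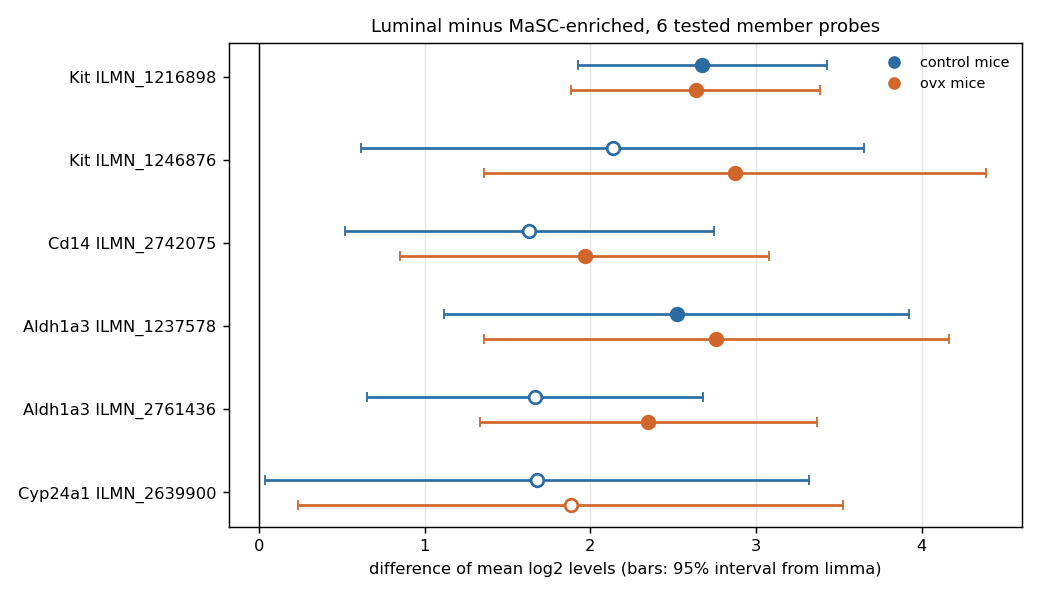
Luminal minus MaSC-enriched difference of mean log2 levels (x axis) for the 6 tested probes (y axis), in control and in ovx mice; bars are 95% intervals from limma and a filled circle marks an adjusted p under 0.05. All differences lie above 0, between 1.63 and 2.68 in control mice and between 1.88 and 2.87 in ovx mice, and 2 and 5 of the 6 are filled.

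Cyp24a1, by its only probe ILMN_2639900 (NM_009996), stood lower after ovariectomy in both fractions, without passing. Its log2 levels were 10.20 and 8.84 in control luminal and 8.11 and 7.55 in ovx luminal cells. They were 8.80 and 6.89 in control MaSC-enriched and 5.73 and 6.17 in ovx MaSC-enriched cells, where ovx replicate 1 was not detected. Ovx and control did not overlap in either fraction, and the control pools lay far apart, with pool replicate 1 the higher by 1.36 in luminal and 1.91 in MaSC-enriched cells. The ovx mean was 3.23-fold lower in luminal cells (log2 difference −1.69, −3.34 to −0.05, unadjusted p = 0.0450, adjusted p = 0.684). It was 3.72-fold lower in MaSC-enriched cells (−1.89, −3.54 to −0.25, unadjusted p = 0.0294, adjusted p = 0.497).

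Those 2 Cyp24a1 differences depended on the control pools. Without both samples of the second control pool they were −2.37 in luminal cells (adjusted p = 0.157) and −2.85 in MaSC-enriched cells, which passed (adjusted p = 0.0417), with replicate 1 as the lone control sample of each fraction. For that sample the array had the fewest detected probes. Without control replicate 1 of the fraction in question, the difference was −1.01 in luminal and −0.94 in MaSC-enriched cells. Between the fractions, Cyp24a1 was 3.20-fold higher in luminal cells of control mice (1.68, 0.04 to 3.32, adjusted p = 0.182) and 3.68-fold higher in those of ovx mice (1.88, 0.24 to 3.52, adjusted p = 0.137), neither called. With the mouse pool as a fixed replicate block the ovx value passed (adjusted p = 0.0328) and with the pool as a random block it did not (adjusted p = 0.0655). It passed without both samples of the second control pool (adjusted p = 0.0146). The control value passed with neither block (adjusted p = 0.0517 fixed, 0.0948 random).

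**Figure D3:**
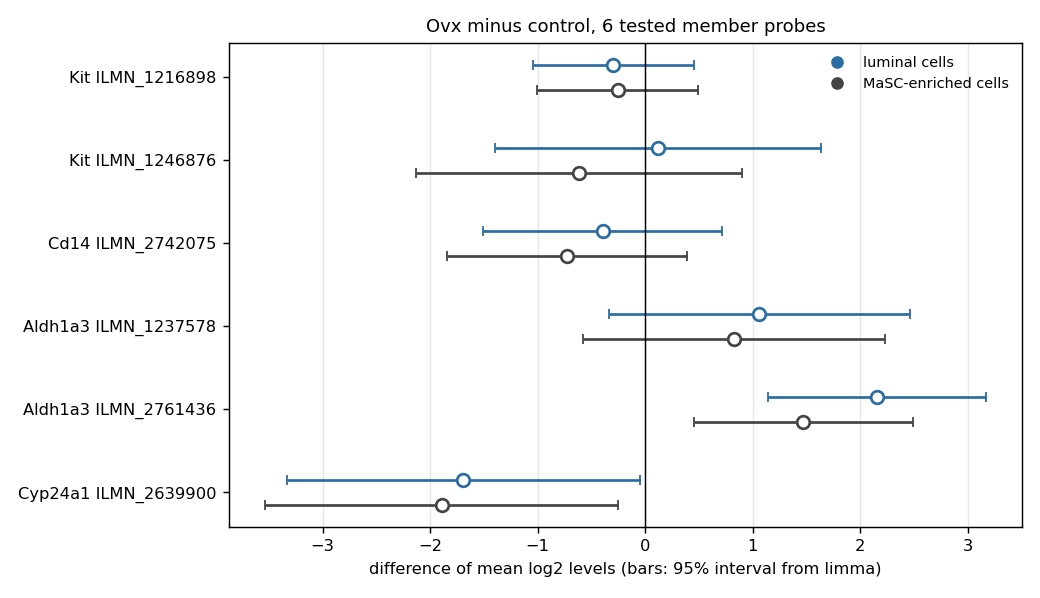
Ovx minus control difference of mean log2 levels (x axis) for the 6 tested probes (y axis) in luminal and in MaSC-enriched cells; bars are 95% intervals from limma, and all circles are open since no adjusted p is under 0.05. The intervals of Aldh1a3 ILMN_2761436 lie above 0 and those of Cyp24a1 below 0 in both fractions, and the other 4 probes have intervals that include 0.

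Read in order, Kit and Cd14 had both luminal groups above both MaSC-enriched groups, and no difference between treatments within a fraction was called. For Aldh1a3 by ILMN_2761436 the order of means was ovx luminal (9.61), control luminal (7.45), ovx MaSC-enriched (7.26) and control MaSC-enriched (5.79), and the 2 groups in the middle overlapped. For Cyp24a1 the order was control luminal (9.52), control MaSC-enriched (7.84), ovx luminal (7.83) and ovx MaSC-enriched (5.95), and the 2 in the middle again overlapped.

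In the comparison of fractions in control mice, 2 of the 6 tested probes were called, both higher in luminal cells, where 4.54% of all kept probes were called higher and 10.1% were called in either direction. In ovx mice 5 of the 6 were called higher, against 5.05% of all kept probes called higher and 12.4% in either direction. The 2 luminal samples lay above the 2 MaSC-enriched ones for 6 of 6 probes in each comparison, which held for 30.1% of all kept probes in control and 36.9% in ovx mice. The median difference of the 6 probes was 1.91 in control and 2.49 in ovx mice, beside 0.16 and 0.11 over all kept probes. Kit ILMN_1216898, 1 of the probes in each of these counts, passed the filter on dim probes only through its luminal samples, where it is high, so it had to differ. The members are known as luminal markers, so this direction is a check of the sort, and the 2 Kit and 2 Aldh1a3 probes share their gene.

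For ovx against control no member probe was called in either fraction, where 0.157% of all kept probes were called in luminal and 0.0762% in MaSC-enriched cells (33 and 16 of 20995 in limma). The unadjusted p was under 0.05 for 2 of the 6 probes in each fraction, Aldh1a3 ILMN_2761436 and Cyp24a1. Of all 20995 kept probes this held for 1511 in luminal and 1811 in MaSC-enriched cells. In luminal cells the samples did not overlap for 2 probes that stood higher in ovx mice (26.9% of all kept probes) and 1 that stood lower (24.7%). In MaSC-enriched cells this was so for 1 higher (19.8%) and 2 lower (12.5%). The median ovx difference was −0.09 in luminal and −0.44 in MaSC-enriched cells, beside 0.02 and 0.07 over all kept probes.

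No difference of the ovx effects between the fractions was called for the 6 probes, nor for any of the 20995 kept probes (0.00%), although 952 had an unadjusted p under 0.05. The difference, luminal minus MaSC-enriched, ran from −0.04 for Kit ILMN_1216898 (−1.10 to 1.02) to 0.74 for Kit ILMN_1246876 (−1.41 to 2.88), with an adjusted p of 1.00 for each of the 6. For Aldh1a3 ILMN_2761436 it was 0.69 (−0.75 to 2.12) and for Cyp24a1 0.20 (−2.12 to 2.53). The intervals leave room for differences between the fractions as large as the ovx effects themselves. Both fractions came from the same mouse pools, so an effect seen in both is not seen in independent mice.

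Of the 8 RNAs, 4 were measured on both beadchips. These were control and ovx luminal replicate 1, and control and ovx MaSC-enriched replicate 2. Both MaSC-enriched RNAs of replicate 1 were on beadchip 1 only, and both luminal RNAs of replicate 2 on beadchip 2 only. The values of the 2 beadchips therefore in part measure the same RNA again and are not independent. Within beadchip 1 and 2 in turn, the ovx difference of Aldh1a3 ILMN_2761436 was 2.23 and 2.19 in luminal cells and 1.40 and 0.81 in MaSC-enriched cells. That of Cyp24a1 was −2.00 and −1.74 in luminal cells and −1.96 and −0.58 in MaSC-enriched cells. The ovx difference of Kit ILMN_1246876 was 0.08 on both beadchips in luminal cells, and that of Cd14 −0.46 and −0.42. The luminal over MaSC-enriched difference kept its direction for all 6 probes on each beadchip, from 1.27 to 2.74 in control and from 1.58 to 3.77 in ovx mice. Within beadchip 1 none of the 6 passed in either comparison, and within beadchip 2, 3 passed in control and 5 in ovx mice. The second arrays of the 4 RNAs that had one differed from the first by at most 0.64 for any of the 8 probes.

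Markers of luminal cells in general were compared with the members in the MaSC-enriched samples. The mean log2 level of 8 such markers there was 11.52 in control replicate 1, 10.49 in control replicate 2, 12.03 in ovx replicate 1 and 11.19 in ovx replicate 2, against 12.77 to 13.29 in the luminal samples. In each of the 4 samples 7 of the 8 were detected, and Epcam, an adhesion molecule of luminal cells, was not. Krt18 stood at 13.22 and 11.55 in the control and at 13.98 and 12.61 in the ovx MaSC-enriched samples. Replicate 1 was the higher of each pair for the marker mean and for 6 of the 8 markers, as for Kit ILMN_1246876 and Cd14. Between treatments the marker mean was higher in ovx than in control cells, while Kit ILMN_1246876 and Cd14 were lower. Both tested Aldh1a3 probes read lower in replicate 1 of the control pair, but neither was detected there. The dimmest detected signal of that array, 7.29, lay above both replicate 2 levels (6.98 and 6.30), so their order cannot be told. In the ovx pair, Gata3 and Cyp24a1 were lower in replicate 1, where Cyp24a1 was not detected. The part of luminal cells in the levels of the MaSC-enriched samples was not tested.

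**Figure D4:**
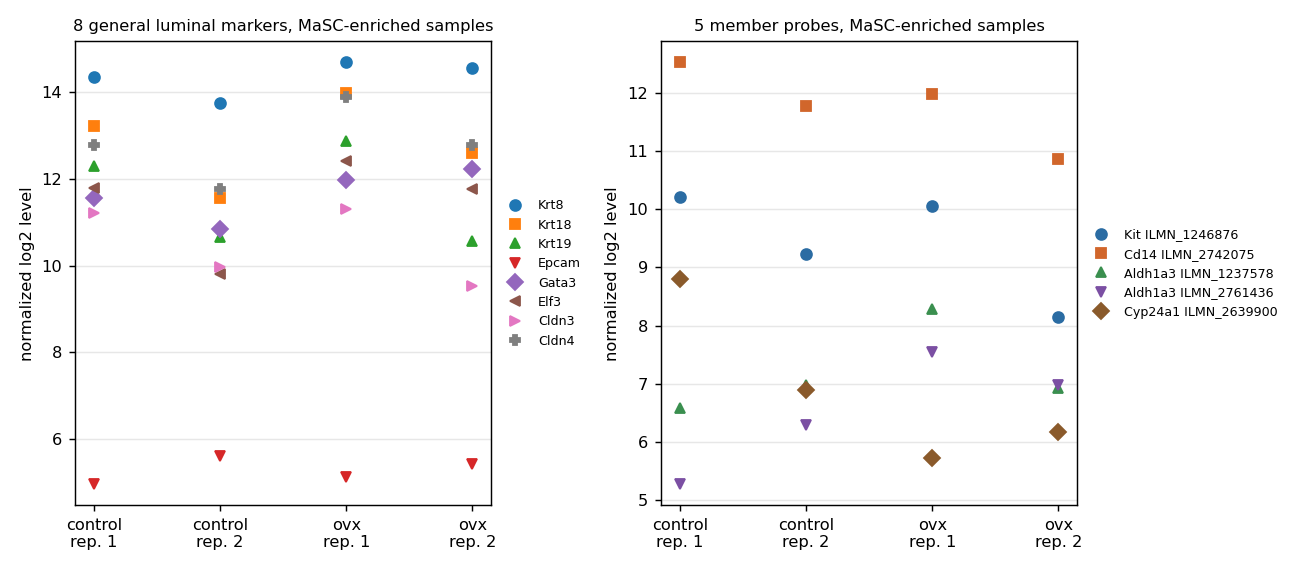
Normalized log2 levels (y axis) in the 4 MaSC-enriched samples (x axis) of 8 general luminal markers on the left and of 5 member probes on the right. Kit, Cd14 and 6 of the 8 markers are higher in replicate 1 than in replicate 2 of both treatments, Gata3 in control mice only, and Epcam, at or below 5.60, in neither.

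Kit is also a gene of mast cells and melanocytes, and Cd14 of monocytes and macrophages. Ptprc, which encodes CD45, was not detected on any array by any of its 4 probes. Pecam1, which encodes CD31, was detected on all 12 arrays, at 7.58 to 8.69 in luminal and 9.58 to 11.62 in MaSC-enriched samples. All 4 tested endothelial genes were called lower in luminal than in MaSC-enriched cells, in control and in ovx mice. Of 7 mast cell genes 1 to 3 were detected in a sample, with a mean log2 level of 5.50 to 6.01. Cpa3, a mast cell protease gene, was detected on 1 of 6 luminal and 3 of 6 MaSC-enriched arrays. Hdc, which makes histamine, was the only bright one and lay lower in luminal (7.35 to 8.51) than in MaSC-enriched cells (8.95 to 11.19). Of 6 melanocyte genes at most 1 was detected in a sample (mean level 5.01 to 5.23). Of 11 macrophage genes 1 to 7 were detected (mean level 5.22 to 6.49), and the lysozyme gene Lyz2 was lower in luminal than in MaSC-enriched cells of ovx mice (−3.55, adjusted p = 0.0218), opposite in sign to Cd14. The part of these cell types in the Kit and Cd14 levels was not tested.

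Of 5 skeletal muscle genes 3 were called higher in the ovx luminal samples, in which Aldh1a3 stood highest. The mean level of the 5 was 6.71 and 5.92 in control and 9.51 and 10.18 in ovx luminal cells. In MaSC-enriched cells, where Aldh1a3 ILMN_2761436 also stood higher after ovariectomy, the same mean was 6.67 and 5.77 in control and 6.93 and 6.05 in ovx mice, and none was called. Adipocyte genes (6 of them) had a mean of 5.76 and 5.61 in control and 6.92 and 6.81 in ovx MaSC-enriched cells, where 1 was called higher. The muscle gene Myh4 was detected only on ovx luminal arrays and the adipocyte gene Lep only on ovx MaSC-enriched arrays. Both passed the filter on dim probes only through the group where they are high. The part of muscle and adipocyte genes in the Aldh1a3 levels was not tested.

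Other genes known from luminal progenitors, a list of 11 of which 9 could be tested, showed few calls. None passed for ovx against control in either fraction, and the median difference was −0.56 in luminal and −1.55 in MaSC-enriched cells. Elf5, the transcription factor of the alveolar lineage, stood at −0.56 in luminal cells (adjusted p = 0.913) and −1.55 in MaSC-enriched cells (adjusted p = 0.633). Wfdc18, a gene of secretory alveolar cells, stood at −1.60 and −2.89 (adjusted p = 0.758 and 0.323) and the membrane mucin gene Muc15 at −1.33 and −1.90 (adjusted p = 0.528 and 0.244). The tetraspanin gene Tspan8 lay on the other side, at 2.25 in luminal (adjusted p = 0.142) and 0.88 in MaSC-enriched cells (adjusted p = 0.638). Between the fractions, Muc15 was higher in luminal cells of control mice (1.82, adjusted p = 0.0456), the only 1 of the 9. In ovx mice Muc15 (2.38, adjusted p = 0.0152), Elf5 (3.05, adjusted p = 0.0375) and the cytokine gene Lif (3.07, adjusted p = 0.0479) were higher. Of the integrin genes, Itgb3 (CD61) was not detected on any control luminal array but on all 3 control MaSC-enriched arrays (at least 3.18-fold higher there, adjusted p = 0.140), and Itga2 (CD49b) did not pass the filter.

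Around the Kit receptor, 7 of 14 genes could be tested. None was called for ovx against control, with medians of 0.08 in luminal and 0.52 in MaSC-enriched cells. Kitl, the gene of the Kit ligand stem cell factor, stood 1.28 higher in ovx MaSC-enriched cells (adjusted p = 0.466) and 0.08 higher in ovx luminal cells (adjusted p = 0.987), by the 1 of its 3 probes that was kept. Stat5a, a transcription factor of alveolar development that acts downstream of several receptors, was higher in luminal cells of control mice (1.78, adjusted p = 0.0265). In ovx mice its difference was 1.23 (adjusted p = 0.0753), and no gene of the list was called there. The list median between fractions was 0.15 in control and −0.43 in ovx mice.

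Around Cd14, 10 of 14 genes of lipopolysaccharide recognition could be tested. Tlr4, the signalling receptor that Cd14 serves, was higher in luminal cells of control mice (1.96, adjusted p = 0.0290) and of ovx mice (2.14, adjusted p = 0.0178). Its adaptor gene Tirap was higher too, by 1.55 in control (adjusted p = 0.0476) and 1.57 in ovx mice (adjusted p = 0.0396). The other 8 were not called, among them Ly96, which encodes the Tlr4 partner MD-2 (0.59 and 0.94), and Lbp, which encodes the lipopolysaccharide-binding protein (0.16 and 0.66). The list median was 0.39 in control and 0.55 in ovx mice. None of the 10 was called for ovx against control, and the medians were 0.02 in each fraction.

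**Figure D5:**
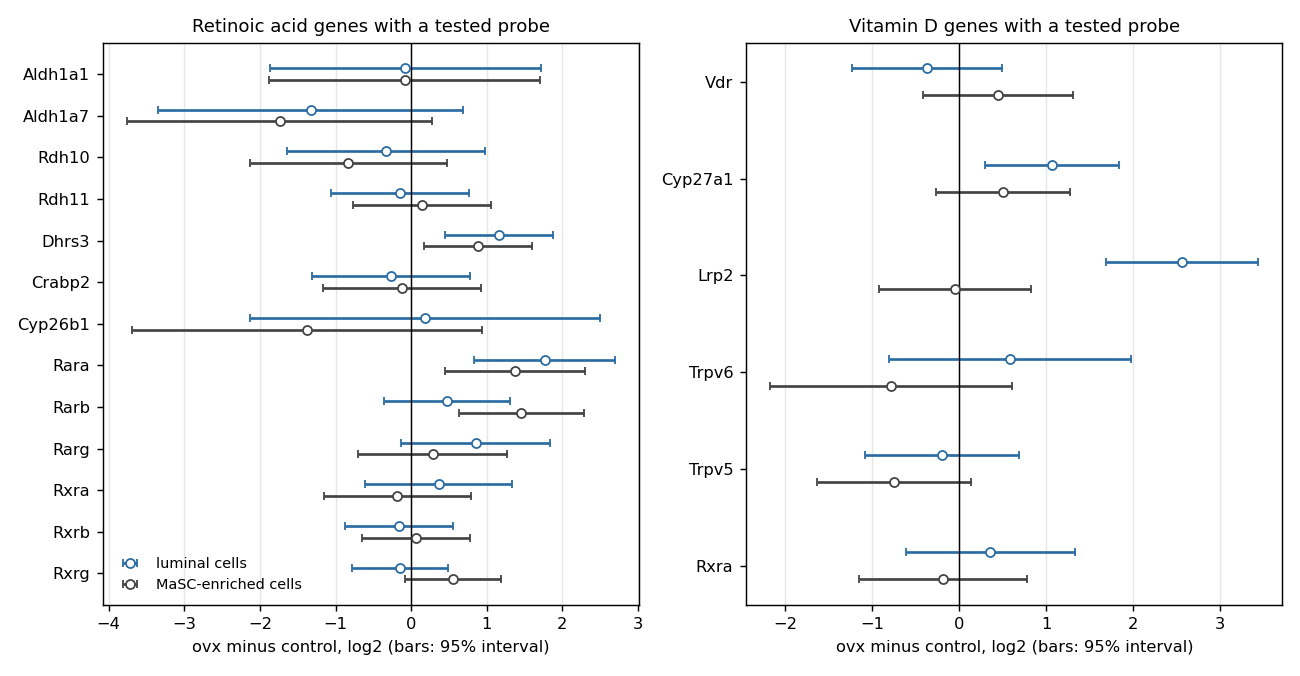
Ovx minus control difference of mean log2 levels (x axis) for the 13 tested genes of retinoic acid metabolism and the 6 of vitamin D metabolism (y axes), in luminal and in MaSC-enriched cells; bars are 95% intervals. No gene passed the threshold, and the highest luminal value is that of Lrp2 (2.56, adjusted p = 0.0669). Some values rest on groups with no detecting array. These are Rara, Rarb, Dhrs3, Rxrg and Lrp2 in control MaSC-enriched cells, and Aldh1a1, Cyp26b1, Rarb, Rxrg and Trpv6 in control luminal cells. They are also Aldh1a1, Aldh1a7, Rxrg and Trpv5 in ovx luminal cells, and Aldh1a7, Rxra and Lrp2 in ovx MaSC-enriched cells.

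Around Aldh1a3, 13 of 19 genes of retinoic acid synthesis, breakdown, transport and reception could be tested, and none was called for ovx against control (medians −0.08 in luminal and 0.06 in MaSC-enriched cells). The related enzyme gene Aldh1a1 was not detected on any luminal array. In each MaSC-enriched group the 2 arrays of replicate 2 detected it and that of replicate 1 did not. Its levels in replicates 1 and 2 were 5.72 and 7.81 in control and 5.82 and 7.54 in ovx mice. Neither probe of Aldh1a2 passed the filter. Of the 3 retinaldehyde dehydrogenases, Aldh1a3 was the one detected on all luminal arrays. Rara, a retinoic acid receptor gene, stood at 1.76 in luminal cells (adjusted p = 0.238). Rarb, a receptor gene that is itself induced by retinoic acid, stood at 0.47 there (adjusted p = 0.841), detected on no control and 1 of 3 ovx luminal arrays. Neither gene was detected on the control MaSC-enriched arrays. The ovx level in MaSC-enriched cells was at least 1.06-fold higher for Rara (adjusted p = 0.359) and at least 1.18-fold higher for Rarb (adjusted p = 0.266). Dhrs3, which returns retinaldehyde to retinol and is likewise induced by retinoic acid, stood at 1.17 in luminal cells (adjusted p = 0.341), and in MaSC-enriched cells it was undetected on the control arrays (adjusted p = 0.457). Of the retinoic acid-degrading enzymes, Cyp26b1 stood at 0.18 and −1.38 (adjusted p = 0.987 and 0.753), and Cyp26a1 did not pass the filter. No control luminal array detected Cyp26b1, and 1 of 3 arrays did in each other group. Its MaSC-enriched difference rested on control replicate 1, at 8.77 against 5.30 in replicate 2. Between the fractions, Dhrs3 was called higher in luminal cells of control mice (1.73, at least 1.25-fold, adjusted p = 0.0148) and ovx mice (2.01, adjusted p = 0.00714). Of the Aldh1a3 probes, ILMN_1237578 was called higher in both and ILMN_2761436 in ovx mice only. Rxrg was called lower in luminal cells of ovx mice (−1.07, at least 1.17-fold, adjusted p = 0.0438). It was detected only on ovx MaSC-enriched arrays, so it passed the filter only through the group where it is high and had to differ. The other tested genes of the list were not called, and the medians were −0.23 and 0.04.

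Around Cyp24a1, 6 of 11 genes of vitamin D activation, uptake and response could be tested, and again none was called for ovx against control (medians 0.47 and −0.11). Vdr, the vitamin D receptor gene, stood at −0.37 in luminal (adjusted p = 0.877) and 0.44 in MaSC-enriched cells (adjusted p = 0.789), with all 3 of its probes detected on all arrays. Cyp27b1, which makes the active hormone, was not detected on any array. Lrp2, the endocytic receptor megalin that takes up vitamin D with its carrier, stood at 2.56 in luminal cells (adjusted p = 0.0669). Between the fractions, Cyp27a1, a vitamin D hydroxylase of bile acid metabolism, was lower in luminal cells of control mice (−2.51, adjusted p = 0.00514) and ovx mice (−1.94, adjusted p = 0.0108), opposite in sign to Cyp24a1. The calcium channel gene Trpv6 was at least 5.17-fold lower in luminal cells of control mice (adjusted p = 0.0299), and Lrp2, undetected on the MaSC-enriched arrays, was at least 4.995-fold higher in those of ovx mice (adjusted p = 0.00275). Lrp2 passed the filter on dim probes only through its luminal samples, where it is high, so it had to differ. The list medians were −0.68 and −0.81.

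The 4 genes did not follow 1 common pattern over the 8 samples. With the brightest probe of each, Pearson's r of the log2 levels was 0.977 for Kit and Cd14, 0.862 for Kit and Aldh1a3, 0.780 for Cd14 and Aldh1a3, 0.748 for Cd14 and Cyp24a1, 0.644 for Kit and Cyp24a1, and 0.257 for Aldh1a3 and Cyp24a1. These are descriptions over 8 samples that share 4 mouse pools and fall into 2 fractions. Among 10986 other genes, compared by their brightest kept probe and leaving out clone and predicted-locus names, those closest to Kit were the cathepsin gene Ctsh (0.991), the phosphatase gene Ptpn18 (0.988) and the myosin gene Myo5c (0.987). Closest to Cd14 were the mucin gene Muc1 (0.988), Myo5c (0.984) and the claudin gene Cldn7 (0.983). Closest to Aldh1a3 were the kallikrein gene Klk11 (0.987), Tlr4 (0.985) and Rps6kl1 (0.982). Closest to Cyp24a1 were Smoc1 (0.961), the iodide transporter gene Slc5a5 (0.958) and the transcription factor gene Xbp1 (0.958).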

How the data were processed

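Both fractions of 4 mouse pools gave 8 RNAs on 12 single-colour BeadChip arrays, 4 RNAs having a second array. For each probe on each array the deposited non-normalized table gives an average bead intensity. It pairs this, per the file headers, with a detection p-value. The deposited series table holds the authors' normalized values on a log2 scale, used as an alternative. BeadStudio and limma are named, per the submitters' processing notes, with no version or role. The genome build is not given in the sources used here.

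Starting from the deposited intensities, limma 3.58.1 (R 4.3.3) was run as follows: neqc (background from detection p-values, offset 16, quantile normalization, log2), second arrays averaged, and probes kept with a mean detection p under 0.05 in at least 2 of 8 samples (20995 of 45281 probes, 46.4%). The number of pools limits the precision. A model with a mean per group (4 residual and 3.22 prior degrees of freedom) gave moderated two-sided tests, checked on simulated data. "At least" folds raise undetected signals of the lower group to each array's lowest detected signal. Probes were named through the platform annotation, updated by gene ID; 34885 probes had 1 symbol, 18 several and 10378 none.

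The members and the 15 gene lists (141 genes, 95 tested, by the brightest kept probe) were chosen with earlier results of these data known. Named are all member probes, called list genes (up to 6 a list and comparison), fixed neighbours of the members and sort markers, and the 3 genes of highest r per member. Rara, Wfdc18, Tspan8, Krt19, Cpa3, Hdc, Myh4 and Lep, and genes called in another comparison than the one described, were named after their values were seen. Some list genes are not analysed here. The labels' pool numbers pair the fractions. Deviations from group means correlated at 0.367 between the fractions of the control pools and 0.135 between those of the ovx pools, and at 0.279 (luminal) and 0.587 (MaSC-enriched) for control and ovx samples that share a number but no pool. No sequence is printed, since the array's probe sequences were not used here.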

Additional observations from a re-analysis of the deposited data

How the results depend on the processing

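Across 21 alternatives, 624 values of the 6 tested probes were recomputed: 542 kept direction and side of the threshold, 39 lost and 19 gained a call, and 24 changed sign, none of these called. Member probes called in luminal against MaSC-enriched cells of control mice numbered 2, but 1 with no background correction, with no filter on dim probes or with the first array of each RNA, 4 with scaling to the 75th percentile or the beadchip as a block, and 0 within beadchip 1 or with only the 2 groups fitted. In ovx mice they numbered 5, but 2 with no filter and 0 within beadchip 1. Leaving out single samples gave 1 to 3 in control and 1 to 6 in ovx mice: 3 without either control luminal sample, and 1 without either ovx luminal sample or without ovx MaSC-enriched replicate 2. For ovx in MaSC-enriched cells 0 became 1, Cyp24a1, without both samples of the second control pool. With the replicate block (mouse pool fixed) the counts were 3 in control and 5 in ovx mice: Aldh1a3 ILMN_2761436 gained a call in control mice (adjusted p = 0.0437), and in ovx mice Cyp24a1 gained (0.0328) and Cd14 lost one (0.0651). With the pool as a random block the counts were also 3 and 5, and neither of those ovx changes occurred (0.0655 and 0.0245).

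Leaving out single samples took the ovx difference of Kit ILMN_1246876 from −0.14 to 0.38 in luminal cells, with −0.019 between, and from −1.57 to 0.34 in MaSC-enriched cells. The other changes of sign lay in the difference of ovx effects between the fractions. There the values without single samples ran from −0.76 to 1.16 for Cyp24a1, −0.27 to 0.19 for Kit ILMN_1216898, −0.22 to 1.69 for Kit ILMN_1246876, −0.22 to 0.89 for Cd14 and −0.44 to 0.92 for Aldh1a3 ILMN_1237578. The same difference turned for Cyp24a1 to −0.067 with an offset of 50, −0.068 with the deposited table, −0.28 with no background correction, −0.0092 with scaling to the 75th percentile, and −0.038 and −1.16 within beadchips 1 and 2. For Kit ILMN_1216898 it turned to 0.55 with that scaling and within beadchip 2. The causes were not tested. Counts over all probes ranged from 0 to 137 for ovx in luminal cells, 0 to 583 in MaSC-enriched cells, 0 to 9 for the difference, 181 to 5503 between fractions in control and 262 to 4337 in ovx mice. Where 1 sample stood alone in a group it was assumed to vary like the others. Dim probes, such as Kit ILMN_1216898 in MaSC-enriched cells, are limited by background: its luminal difference was 1.34 in control and 1.27 in ovx mice with no background correction.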

Other observations

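Averaged over both fractions with the mouse pool as the unit, an alternative added after the same direction had been seen in both, Aldh1a3 by ILMN_2761436 stood at 6.239 and 6.998 in the control pools and at 8.34 and 8.52 in the ovx pools. The ovx difference was 1.81 (SE 0.349, unadjusted p = 0.00309, limma adjusted p = 0.417). By ILMN_1237578 the pools lay at 7.61 and 8.48 in control and 8.78 and 9.19 in ovx mice (difference 0.94, limma adjusted p = 0.612). Cyp24a1 lay at 7.87 and 9.50 in the control pools and at 6.86 and 6.92 in the ovx pools, a difference of −1.79 (SE 0.566, unadjusted p = 0.0235, limma adjusted p = 0.564). Cd14 lay at 12.85 and 13.07 in the control pools and at 12.26 and 12.53 in the ovx pools (difference −0.56, limma adjusted p = 0.642), and for Kit the difference was −0.25 and −0.28 by its 2 probes. No member was called, as none of the 20995 kept probes was (0.00%), and 1736 (8.27%) had an unadjusted p under 0.05.

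Of 7 tested markers of hormone-sensing luminal cells, the cells that progenitors are told apart from, 6 were called higher in luminal cells of control mice and 4 in those of ovx mice, with medians of 4.21 and 3.31. Foxa1 stood at 4.68 and 4.53 and Wnt4 at 4.21 and 3.73 in control and ovx mice, and Prom1, not called, at 1.86 and 1.89. Tnfsf11, the gene of RANK ligand, fell by 4.89 in luminal cells after ovariectomy (limma adjusted p = 0.0112), the only 1 of the 7 called for ovx against control.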
